A study of Homo sapiens with 6 samples.

Results

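The zinc-finger genes of human chromosome 19 were examined as a group in RNA-seq data labelled as K562 cells transfected with siRNAs against αCP1 and αCP2, 2 poly(C)-binding proteins, or with control siRNAs. K562 is an established human leukemia cell line, and RNA was taken 72 h after transfection from 3 pools of cells in each group. As labelled and as the study describes them, both groups were the same line and differed in the siRNA. Each group pooled different siRNA designs, with some of the cell pools taken over from an earlier experiment. The deposited table gives each gene a single value per group, in a column labelled KD for the αCP1/2 siRNAs and a column labelled CTRL for the control siRNAs, here the KD column and the CTRL column. Members were selected on symbol, position and measured level: rows named ZNF with a number and at most 1 further letter, a locus on chromosome 19, and a mean FPKM over both columns of 1 or more. FPKM is a fragment count scaled to transcript length and to the depth of the library. This rule took 161 of the 272 such rows that the table lists, among 57150 rows in all, of which 13741 reached that level and are called all genes below. Because the rule used the level in both columns, the levels and ratios of the members are a description, and with 1 value per group no replicate error and no test could be had.

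Estimated counts summed to 13699340 in the KD column and 11680567 in the CTRL column. For every single library the study reports more mapped read pairs than either sum. The sums are therefore not the sequenced depth of the groups, and how the counts were scaled is not given in the sources used here. The mRNAs that the siRNAs target did not reach the level of a call in the direction of depletion: PCBP1, which encodes αCP1, had a log2 ratio of -0.03, and PCBP2, which encodes αCP2, one of 0.63. Of 14 genes listed as markers of K562 cells and blood lineages, 7 were at 0 in both columns, among them the erythroid genes GATA1, TAL1 and KLF1, and summed FPKM over the 14 was 168.2 in the KD column and 44.7 in the CTRL column, of which the embryonic globin gene HBE1 gave 152.9 and 35.4. Of 8 genes of epithelial and other cells, 4 were above 5 FPKM in both columns, led by KRT18 at 2309 and 1748, with sums of 5046 and 3720 over the 8. The others were low or absent: EPCAM had 3.94 and 3.26 FPKM, CDH1 had 0.36 and 0.43, and 2, KRT19 and ALB, were at 0 in both. U2AF2, which the study depleted with siRNAs in other experiments, had 351 counts in the KD column and 2393 in the CTRL column, a log2 ratio of -2.63. The study reports depletion of αCP1 and αCP2 at the mRNA and protein level, with a representative Western blot. The deposited values do not show it for the mRNAs. Those of PCBP1 and PCBP2 go against the label of treatment, and the erythroid genes at 0 go against that of the cell line. What cells and siRNA the KD column stands for therefore cannot be told from the table. The ratios below compare the columns as labelled. The log2 ratio also moved with the GC content of the transcript across 13298 genes, with a Spearman rho of 0.445 over genes that share the same libraries.

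C2H2 zinc-finger proteins are the most numerous family of human DNA-binding proteins. Each finger is a short fold in which a pair of cysteines and a pair of histidines hold a zinc ion, and fingers follow one another in tandem, each reading a few bases of DNA. Chromosome 19 carries large clusters of these genes that arose by repeated duplication. Most of the clustered genes also encode a KRAB box, a segment near the amino terminus that recruits the co-repressor TRIM28 (KAP1), which brings the histone methyltransferase SETDB1 and HP1 proteins to the bound site. Many KRAB zinc-finger proteins bind transposable elements and keep them silent. A smaller number of zinc-finger genes on this chromosome lack the KRAB box and belong to older, more conserved families.

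The finger is the unit that members share and that the selection by symbol did not use. A finger of the canonical form, ending in the linker threonine, glycine, glutamate or valine, a basic residue and proline, and lying within 1 exon, was found in the coding sequence of 146 members. The first such finger is printed for the 4 members with the highest log2 ratio that have one, for the 3 with the lowest, and for the 2 with the highest level, so that their bases can be compared. Ratios here are those of FPKM, and ZNF28, which is placed as higher by FPKM, had nearly equal counts, 67 in the KD column and 55 in the CTRL column. Each sequence has 84 bases, is read 5′ to 3′ from GRCh37 on the coding strand, and has the codons of the zinc-holding cysteines and histidines in capitals.

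Higher in the KD column:
ZNF28, chr19:53304036-53304119, minus strand: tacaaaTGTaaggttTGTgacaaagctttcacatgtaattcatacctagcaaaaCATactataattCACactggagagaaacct
ZNF865, chr19:56126032-56126115, plus strand: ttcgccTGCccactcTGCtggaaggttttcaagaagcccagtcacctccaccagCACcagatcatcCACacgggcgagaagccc
ZNF628, chr19:55992666-55992749, plus strand: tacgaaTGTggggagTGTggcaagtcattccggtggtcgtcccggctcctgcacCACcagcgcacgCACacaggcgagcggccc
ZNF787, chr19:56600262-56600345, minus strand: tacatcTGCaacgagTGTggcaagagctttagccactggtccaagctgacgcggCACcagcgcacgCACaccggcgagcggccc

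Lower in the KD column:
ZNF254, chr19:24309598-24309681, plus strand: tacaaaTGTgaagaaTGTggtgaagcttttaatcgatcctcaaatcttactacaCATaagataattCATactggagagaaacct
ZNF433, chr19:12127007-12127090, minus strand: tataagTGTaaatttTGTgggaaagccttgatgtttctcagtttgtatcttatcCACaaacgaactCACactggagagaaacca
ZNF266, chr19:9524800-9524883, minus strand: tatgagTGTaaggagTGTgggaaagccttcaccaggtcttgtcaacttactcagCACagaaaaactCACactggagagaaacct

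Highest in level:
ZNF146, chr19:36727556-36727639, plus strand: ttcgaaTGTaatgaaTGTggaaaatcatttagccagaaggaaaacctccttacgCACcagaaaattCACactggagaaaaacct
ZNF121, chr19:9677276-9677359, minus strand: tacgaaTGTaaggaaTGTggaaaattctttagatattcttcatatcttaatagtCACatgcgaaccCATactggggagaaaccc

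The form searched for sets the frame of 4 zinc-holding codons and the length of the 9 fingers, while the bases between these codons differ. At the third base of the codons, which often can differ without changing the amino acid, G or C made up 89.3% in ZNF865, 82.1% in ZNF628 and 92.9% in ZNF787. In ZNF28 this share was 25%, and in the other 5 it ran from 14.3% in ZNF254 to 42.9% in ZNF266. Over the 146 members with such a finger the median was 35.7%, with 35.7% in 134 members with a KRAB box and 76.8% in 12 without one. ZNF428, ZNF524, ZNF581 and ZNF446, which also had high ratios, had no finger of this form.

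Many listed zinc-finger genes of the chromosome were low or not detected. Of the 272 rows, 69 were at 0 in both columns and 42 were above 0 with a mean FPKM under 1, which left 59.2% as members. Among the rows, 22 carried a symbol that another row also carried, and 8 of these were at 0, so part of the zeros are second rows of a gene. On the other chromosomes 201 of 295 ZNF rows, or 68.1%, passed the same threshold, and 53 were at 0. The members nearest above the threshold were ZNF71 (1.15 FPKM in the KD column and 0.91 in the CTRL column), ZNF221 (0.78 and 1.30) and ZNF433 (0.49 and 1.63). The rows nearest below it were ZNF546 (0.61 and 1.37), ZNF709 (0.85 and 1.11) and ZNF763 (0.88 and 1.07). These 6 rows differ little in mean level.

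**Figure D1:**
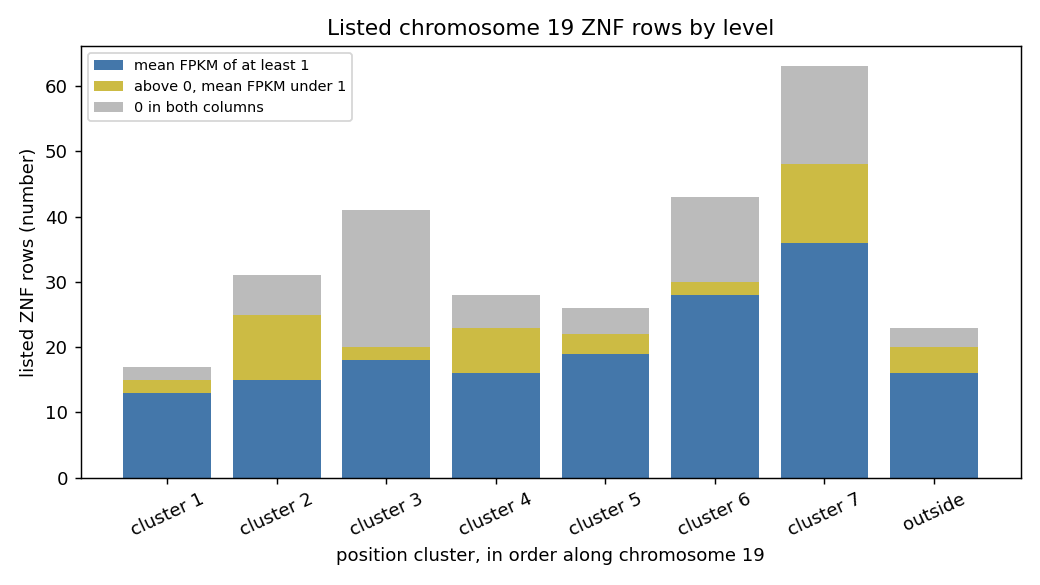
Number of listed chromosome 19 ZNF rows in each position cluster, split by level. The horizontal axis gives the 7 clusters in order along the chromosome and the rows outside them, the vertical axis is a number of rows, and the grey part of cluster 3 shows 21 of 41 rows at 0 in both columns.

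Members were expressed at low levels. Their median FPKM was 3.08 in the KD column and 2.89 in the CTRL column, against 10.9 and 10.5 over all 13741 genes, and 16 of 161 had a mean of at least 10 FPKM. Altogether the members summed to 1779 CPM (counts scaled to a fixed column total) in the KD column and 1855 in the CTRL column, while their summed FPKM was 875.2 and 739.2. Counts were small for many members, with a median of 84 in the KD column and 88 in the CTRL column and a lowest sum over both columns of 44.

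The 12 members with the highest level include genes with and without a KRAB box. ZNF146, also called OZF, consists almost wholly of fingers and had 36.6 FPKM in the KD column and 34.3 in the CTRL column, a log2 ratio of 0.09. ZNF121 had 35.0 and 25.8, a log2 ratio of 0.43. ZNF580 had 39.7 and 20.5 and ZNF358 had 32.6 and 18.7, with log2 ratios of 0.92 and 0.77. ZNF91, a KRAB protein known to repress SVA retrotransposons, had 32.5 and 24.1 and the largest number of fingers among the members, 31. Next came ZNF317 with 23.5 and 17.9, ZNF714 with 17.4 and 19.8, ZNF581 with 25.2 and 10.3, ZNF302 with 13.84 and 20.03, ZNF428 with 27.1 and 5.87, ZNF544 with 15.2 and 14.2, and ZNF331, an imprinted gene, with 13.7 and 13.8. ZNF714 and ZNF302 were lower in the KD column, ZNF331 was nearly equal in both, and the other 9 of the 12 were higher there.

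As a group, members were centred near equal values in both columns. Ratios were taken as log2 of FPKM plus 1 in the KD column over the same in the CTRL column, a scale on which the differences of low genes come out too small, and a ratio of 1 or more, or -1 or less, was called. The median over the 161 members was -0.0041, beside 0.015 over all genes, and 79 members were above 0. A ratio of 1 or more was seen in 8 members, or 4.97%, beside 8.51% of all genes. A ratio of -1 or less was seen in 0 members, beside 3.27% of all genes, so both shares lay below the background. The ratios of 117 members lay within 0.5 of 0, and the range ran from -0.94 for ZNF254 to 2.03 for ZNF428. Fewer cells of a type and less RNA per cell cannot be told apart in such bulk samples.

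**Figure D2:**
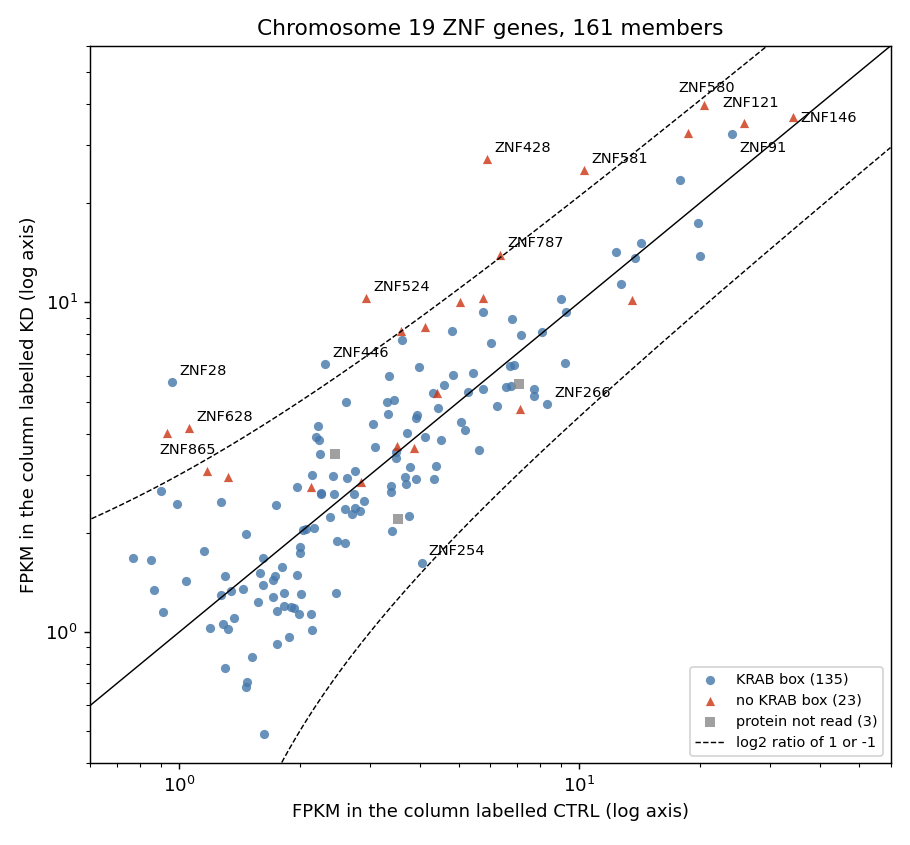
FPKM of each of the 161 members in the CTRL column (horizontal, log axis) and in the KD column (vertical, log axis). Each point is 1 gene, coloured by the KRAB box, the solid line marks equal values and the dashed lines mark log2 ratios of 1 and -1 with the pseudocount of 1. The 8 members above the upper line include ZNF428 at 27.1 against 5.87, and no member lies below the lower line.

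Counting error was judged from the estimated counts. For each gene the share of its 2 rounded counts that fell in the KD column was turned into a log2 ratio of count shares, with a 95% exact binomial (Clopper-Pearson) interval that covers counting error only and not the spread between pools of cells. The interval lay wholly above 0 for 27 members, or 16.8%, beside 23.8% of all genes. It lay wholly below 0 for 63 members, or 39.1%, beside 43.7% of all genes. For the other 71 members it included 0, so a difference was not detectable with these counts. The counts sum to less than the mapped pairs of any single library, so the intervals hold only for the estimated counts as given. On this scale the median over all genes was -0.21 and that of the members -0.25, so 0 is not its centre.

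Other genes of the same chromosome had higher ratios than the members. The 794 chromosome 19 genes that are no ZNF genes had a median log2 ratio of 0.44, with 175 at 1 or more and 18 at -1 or less. The 201 ZNF genes of other chromosomes had a median of 0.03, with 8 at 1 or more and 2 at -1 or less. Median GC content of the longest transcript was 42.5% in the members, 45.9% in the other ZNF genes, 59.0% in the other chromosome 19 genes and 47.9% over all genes. With a quadratic trend of the ratio on GC and on transcript length taken out, the medians were 0.08, -0.03 and 0.08 for these 3 groups. All of these groups were read from the same 2 columns, and the difference between them has no replicate check.

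The 8 members at 1 or more were ZNF428, ZNF28, ZNF524, ZNF865, ZNF628, ZNF581, ZNF446 and ZNF787. They were chosen for high ratios in these same columns, so their counting intervals are a description. ZNF865 and ZNF28 were under 1 FPKM in the CTRL column and passed the level filter through the KD column. ZNF428 (chr19:44111376-44123781, minus strand), which holds a single finger, the fewest of any member, had 27.1 FPKM in the KD column and 5.87 in the CTRL column, from counts of 354.6 and 86.5. Its log2 ratio was 2.03, and the interval from counts was 1.47 to 2.17. ZNF524 (chr19:56111388-56114504, plus strand), a protein that binds telomeric repeats, had 10.3 and 2.93 FPKM from 126 and 36 counts, a log2 ratio of 1.52 with an interval of 1.03 to 2.15. For both genes the lower end of the counting interval was above 1, as it was for ZNF865 and ZNF628.

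ZNF865 (chr19:56117013-56128635, plus strand), with 20 fingers, had 4.03 and 0.93 FPKM from 195 and 45 counts and a log2 ratio of 1.38. Its interval from counts was 1.41 to 2.39. ZNF628 (chr19:55987984-55995854, plus strand), with 16 fingers, had 4.16 and 1.06 FPKM from 176 and 49 counts and a log2 ratio of 1.33. Its interval from counts was 1.15 to 2.10. Both are low genes whose fold is understated by the pseudocount: the plain ratio of FPKM was 4.33 for ZNF865 and 3.93 for ZNF628. ZNF581 (chr19:56146825-56156989, plus strand) had 25.2 and 10.3 FPKM from 310 and 120 counts, a log2 ratio of 1.21. Its neighbour ZNF580, whose annotated span overlaps it on the same strand and with which it shares 12.7% of its 100-base stretches, had a log2 ratio of 0.92, and reads from the 2 genes could have been split between them. ZNF446 (chr19:58985384-58992597, plus strand), which carries a SCAN domain and a divergent KRAB box, had 6.51 and 2.31 FPKM from 160.1 and 68.4 counts, a log2 ratio of 1.18. Since 34.6% of the 100-base stretches of ZNF446 also occur in the neighbouring ZNF324, whose log2 ratio was 0.19, its value is uncertain. ZNF787 (chr19:56598732-56632664, minus strand) had 13.96 and 6.35 FPKM from 307 and 139 counts, a log2 ratio of 1.02. Among the 8, which were chosen for high ratios, the counting interval lay wholly above 0 for 7, beside 23.8% of all genes.

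ZNF28 (chr19:53300661-53360853, minus strand), a KRAB protein with 15 fingers, was the exception. Its FPKM was 5.73 in the KD column and 0.96 in the CTRL column, a log2 ratio of 1.78. Its counts were 67 and 55, which gave a log2 ratio of count shares of 0.05 with an interval of -0.48 to 0.60. The difference thus stood in the FPKM values and not in the counts, and FPKM also depends on which isoforms the counted fragments were given to.

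Just under the threshold stood ZNF574 with 8.18 and 3.59 FPKM and a log2 ratio of 0.9997, ZNF616 with 2.67 and 0.90 and a log2 ratio of 0.95, ZNF580 at 0.92 and ZNF585A with 7.72 and 3.61 and a log2 ratio of 0.92. ZNF616, a KRAB protein, had 120 counts in the KD column and 25 in the CTRL column, and its log2 ratio of count shares was 2.03 (interval 1.402 to 2.72), the highest of the members by count. ZNF585A had 84 and 62 counts, a log2 ratio of count shares of 0.21 with an interval of -0.28 to 0.71. The counts therefore placed ZNF616 higher and ZNF585A lower than their FPKM did.

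Members without a KRAB box held most of the high ratios. A KRAB box was found by pattern in the longest open coding sequence of 135 members and was not found in 23, while ZNF274, ZNF8 and the pseudogene ZNF702P had no coding sequence that could be read. The 135 KRAB members had a median log2 ratio of -0.05, with 59 above 0 and 2 at 1 or more (1.48%), ZNF28 and ZNF446. The 23 members without one had a median of 0.77, with 19 above 0 and 6 at 1 or more (26.1%), beside 8.51% of all genes. Among the latter, the counting interval lay wholly above 0 for 14 and wholly below 0 for 3. Among the KRAB members these numbers were 13 and 58, and over all genes the shares were 23.8% and 43.7%. Levels differed too, with a median of the mean FPKM of 2.83 in KRAB members and 6.26 in the others.

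The same split was one of base composition. Median GC content was 42.1% in KRAB members and 60.9% in members without the box. Of the 23 without the box, the 17 with a GC content of at least 50% had a median log2 ratio of 0.91 and held all 6 called members, whereas the 6 with less GC, ZNF146, ZNF121, ZNF83, ZNF507, ZNF260 and ZNF134, had a median of 0.07 and none called. The 7 KRAB members with at least 50% GC had a median of 0.19, all 7 above 0, with ZNF446 called. The called share of the 17 was 35.3%, beside 15.3% of all genes with at least 50% GC. Those genes had a median of 0.32, with 70.7% above 0. The other chromosome 19 genes with at least 50% GC had a median of 0.54, with 24.1% at 1 or more. Exceptions in the GC-rich group without the box were ZNF784, which had 2.85 FPKM in both columns, ZNF526 with 5.33 and 4.41, and ZNF576, which was lower in the KD column with 10.2 and 13.6.

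Ratios were highest in the GC-richest genes, among members as among all genes. When all genes were cut into 4 equal bins of GC content, the 69 members in the GC-poorest bin had a median of -0.06 beside -0.24 for all genes of that bin. In the second bin the 62 members had -0.06 beside -0.13, in the third the 10 members had 0.13 beside 0.09, and in the GC-richest bin the 19 members had 0.91 beside 0.47. Across members the Spearman rho between log2 ratio and GC content was 0.287 (160 genes of the same libraries), 0.10 among 135 KRAB members and 0.661 among 23 without the box. With the GC and length trend taken out, the median was 0.07 for KRAB members and 0.24 for those without the box, and 4 members were at 1 or more. Of these, ZNF428 at 1.52 and ZNF28 at 1.99 were among the 8 called before, and ZNF585A at 1.15 and ZNF616 at 1.13 were not, so 6 of the 8 fell below the threshold. ZNF787 came to -0.077 and ZNF358 to -0.25, both with the sign turned. The part of GC content in the difference between members with and without the box was not tested.

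**Figure D3:**
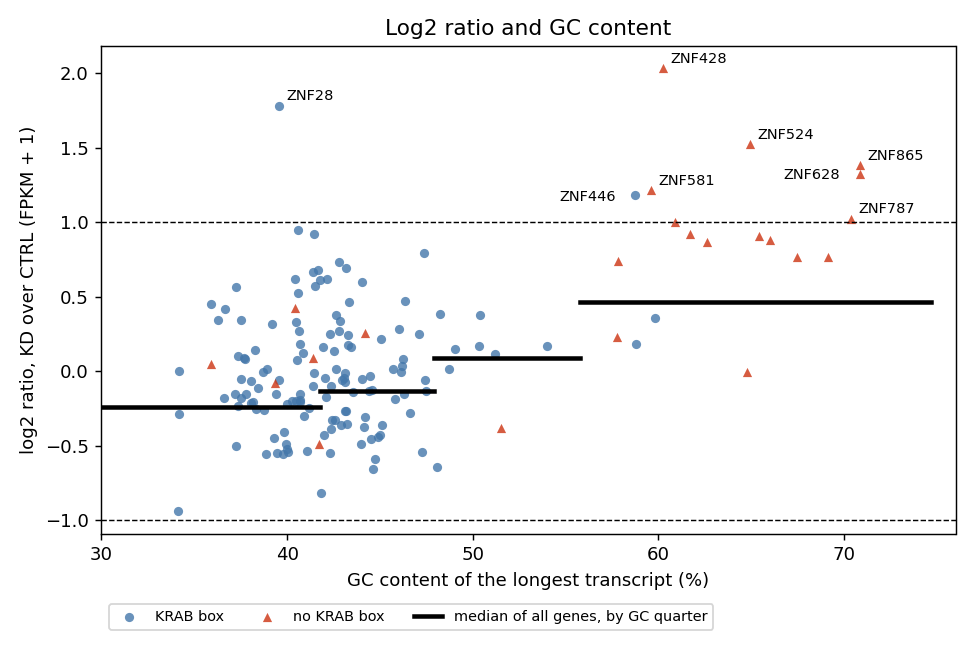
Log2 ratio of the 158 members whose protein was read (vertical) against the GC content of its longest transcript in percent (horizontal). Circles are KRAB members, triangles members without the box, black bars the median of all genes in each of 4 bins of GC content, and dashed lines ratios of 1 and -1. Of the 8 members above the upper line, 7 have a GC content above 50%, and ZNF28 is the eighth.

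The lowest ratios all belonged to KRAB genes. The 12 lowest members with at least 30 counts ran from -0.94 to -0.53, and all 12 encode a KRAB box, as did 135 of the 158 members whose protein was read. The 12 were chosen for low ratios, so their counting intervals are a description: all lay below 0, and those of ZNF254 and ZNF615 included -0.21, the median of all genes on that scale. ZNF254 (chr19:24216207-24312770, plus strand) had 1.62 FPKM in the KD column and 4.04 in the CTRL column, a log2 ratio of -0.94, from counts of 77 and 95 with an interval of -0.99 to -0.08. ZNF433 (chr19:12125530-12146556, minus strand) had 0.49 and 1.63 FPKM from 13 and 31 counts, a log2 ratio of -0.82. ZNF266 (chr19:9523105-9546249, minus strand) had 4.91 and 8.31 FPKM from 178 and 321 counts, a log2 ratio of -0.66 and an interval of -1.35 to -0.81, which is the best counted of the 12. The other 9 were ZNF114, ZNF556, ZNF461, ZNF615, ZNF571, ZNF383, ZNF543, ZNF761 and ZNF700, between -0.64 and -0.53. The 12 lie in 6 of the 7 position clusters described below and, for ZNF114 and ZNF556, outside them, and none passed the threshold of -1.

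**Figure D4:**
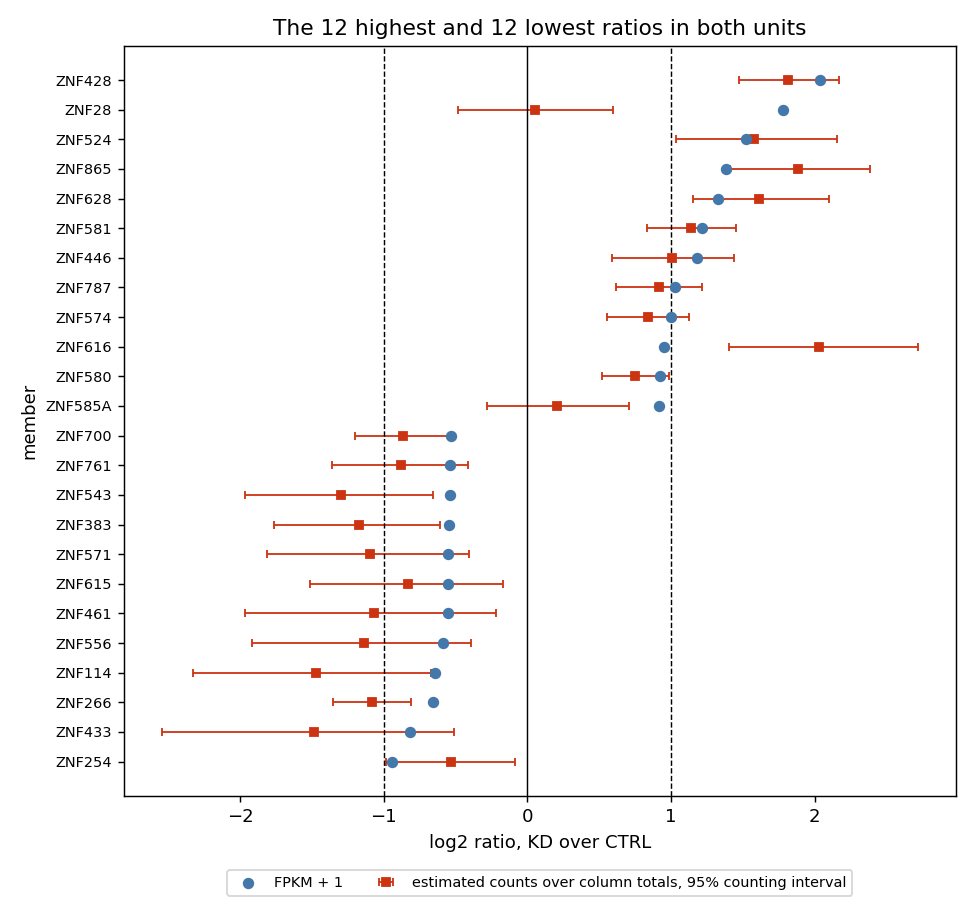
Log2 ratio of the 12 members with the highest and the 12 with the lowest ratio among those with at least 30 counts, from FPKM plus 1 (circles) and from estimated counts over column totals (squares, bars are 95% counting intervals). ZNF28 stands at 1.78 by FPKM and at 0.05 by counts, and ZNF616 at 0.95 and 2.03.

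In position, the listed rows formed 7 clusters when a gap of over 1 Mb started a new one and clusters needed at least 5 members. The first, at 7.07 to 9.90 Mb of hg19, held 13 members with a median log2 ratio of 0.27, and its highest gene was ZNF121. The second, at 11.6 to 12.8 Mb, had 15 members with a median of -0.17, 3 of them above 0, and was topped by ZNF791 with 7.96 and 7.15 FPKM. The third, at 19.8 to 24.3 Mb, which includes ZNF91, held 18 members with a median of -0.15, and 21 of its 41 listed rows were at 0. The fourth, at 36.7 to 38.3 Mb, had 16 members and a median of -0.03, and the fifth, at 44.01 to 45.8 Mb, had 19 members and a median of -0.01 although it holds ZNF428. The 16 members outside clusters had a median of -0.07.

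The sixth cluster, at 52.1 to 54.1 Mb, held 28 members, of which 26 encode a KRAB box. Its median was 0.33, the highest of the 7, with 17 of 28 above 0 and 1 called, ZNF28. Median GC content was 41.3%, and with the GC and length trend taken out the median was 0.50. By counts its members had a median log2 ratio of count shares of 0.07, beside -0.21 over all genes. Of their intervals 9 lay wholly above 0 and 9 wholly below, beside 23.8% and 43.7% of all genes. Members higher in the KD column stood beside lower ones: ZNF616 (2.67 and 0.90 FPKM), ZNF766 (8.22 and 4.82) and ZNF320 (9.36 and 5.76) were higher, while ZNF615 (0.68 and 1.47), ZNF83 (4.76 and 7.09) and ZNF761 (2.03 and 3.41) were lower. ZNF766 rested on 284 and 162 counts and ZNF320 on 586 and 356, and their counting intervals, 0.30 to 0.87 and 0.30 to 0.68, lay above 0.

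The seventh cluster, at 56.0 to 59.0 Mb, held 36 members with a median of 0.17 and 6 of the 8 called, beside 8.51% of all genes called at 1 or more. With a gap of 0.5 Mb it split in 2. The first piece, chr19:55987349-57183151, had 10 members with a median of 0.97, 9 above 0 and 5 called, ZNF628, ZNF524, ZNF865, ZNF581 and ZNF787. With at least 50% GC, 15.3% of all genes and 24.1% of the other chromosome 19 genes were at 1 or more. Its members had a median GC content of 64.8%, 1 of 10 had a KRAB box, and the median with the trend removed was 0.25. The second piece, with 26 members of which 23 encode a KRAB box, had a median of -0.05 and 1 called, ZNF446, and a median GC content of 46.0%. In the first piece lay 9 other genes that reached 1 FPKM in the mean, whose median log2 ratio was 0.17, with 1 at 1 or more and 1 at -1 or less. The latter was U2AF2, which encodes the large subunit of the U2 auxiliary splicing factor, with 12.98 FPKM in the KD column and 85.3 in the CTRL column, a log2 ratio of -2.63. Of the 9 other genes 5 were above 0, so the low ratio past the threshold in this stretch rested on U2AF2 alone.

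**Figure D5:**
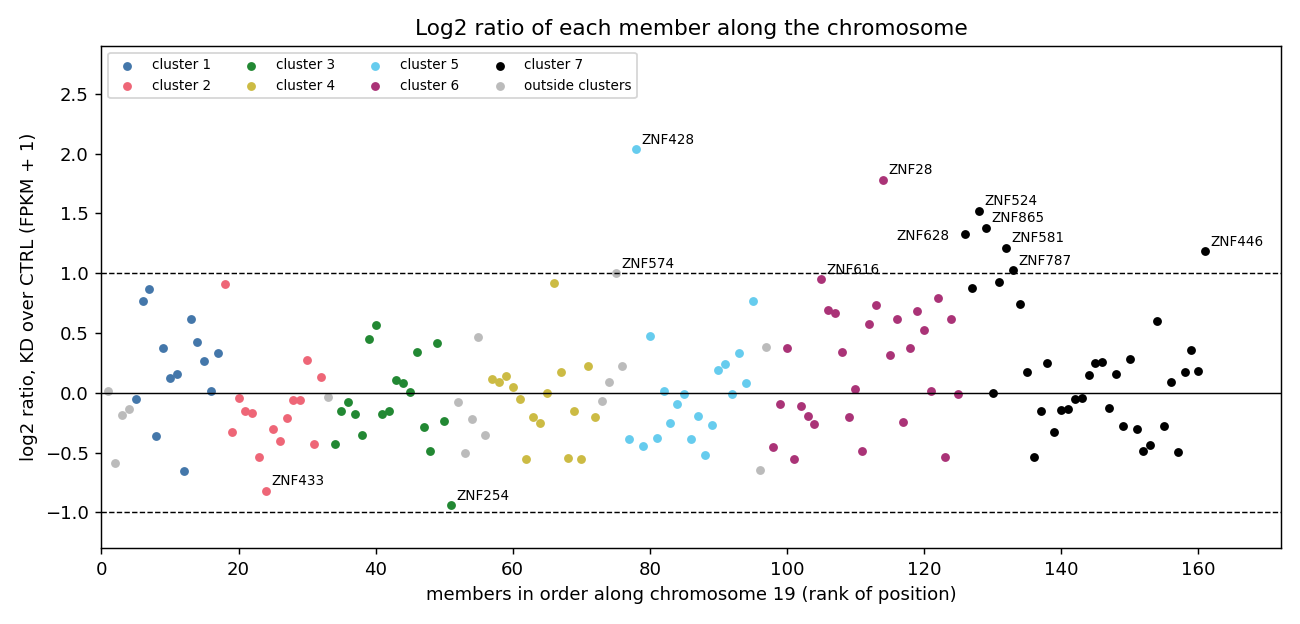
Log2 ratio of each member (vertical) in order along chromosome 19 (horizontal, rank of position, 1 to 161), coloured by position cluster. Dashed lines mark ratios of 1 and -1, and the black points above the line at the start of cluster 7 are ZNF628, ZNF524, ZNF865, ZNF581 and ZNF787.

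FPKM and counts disagreed for some members. Taken without the pseudocount, the FPKM ratio exceeded the ratio of count shares by 0.23 on the log2 scale in the median over all genes, and 12 members, or 7.45%, departed from that by over 0.5, beside 5.23% of all genes. Of the 12, 6 lie in the sixth cluster. The FPKM ratio was above the count ratio in 8, among them ZNF28, ZNF417, ZNF653 and ZNF600, and below it in 4, among them ZNF254 and ZNF616. These genes were named after their values were seen.

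Duplicated sequence is a known limit of short reads in this family. Of 160 members with a transcript in the annotation, 28 had at least 10% of their 100-base stretches, the read length, in a transcript of another gene, and 84 had none. The 28 had a median log2 ratio of 0.20 and the other 132 one of -0.05, and the part of shared reads in this was not tested. As deposited, 57 members carry a locus that they share with another member, so positions of single genes are given from the annotation, while the spans of clusters and their pieces are those of the deposited loci.

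Finger number varied from 1 in ZNF428 to 31 in ZNF91, with a median of 12. Among the 45 members with fewer than 10 fingers the median log2 ratio was 0.16 and 5 were called (11.1%), beside 8.51% of all genes. Their median GC content was 46.0%. The 63 members with 10 to 14 fingers had -0.11 with 0 called, and the 50 with 15 or more had -0.03 with 3 called (6%). Level also differed, with a median of the mean FPKM of 4.64, 2.70 and 2.87 in these groups. Across 158 members the Spearman rho of finger number was -0.157 with the log2 ratio and -0.184 with the level.

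Several KRAB members are known from other work to bind transposable elements, and 6 of 8 such genes looked up after the values were seen were members. ZNF91 and ZNF611, which bind SVA elements, had log2 ratios of 0.42 and 0.57, ZNF611 with 3.82 and 2.24 FPKM. ZNF417 and ZNF587, a closely related pair that represses endogenous retroviruses of the HERV-K group, went in different directions by FPKM, with 1.68 and 0.77 for ZNF417 and 6.55 and 9.23 for ZNF587. By counts the direction of ZNF417 is not settled: it had 31 and 33 counts and a log2 ratio of count shares of -0.32, with an interval of -1.08 to 0.43. ZNF587 had 458 and 588 counts and a log2 ratio of count shares of -0.59. ZNF417 shares 21.7% of its 100-base stretches with ZNF587, so reads could have been assigned to either. ZNF765 had 2.44 and 0.99 FPKM and ZNF808 had 1.24 and 1.58. The SVA and LINE-1 repressor ZNF93 was near 0, at 0.06 and 0.03 FPKM from 2 and 1 counts, and ZNF649 was at 0 in both columns.

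The genes of the proteins through which KRAB zinc fingers act were all detected. All 25 genes of a list of co-repressor components had a mean FPKM of at least 1, with a median log2 ratio of -0.18, 8 above 0 and 17 below, none at 1 or more and 1 at -1 or less. The scaffold TRIM28 had 537.3 FPKM in the KD column and 312.3 in the CTRL column, a log2 ratio of 0.78. The histone methyltransferase SETDB1 had 26.1 and 33.9, its partner ATF7IP 2.46 and 3.74, and the HP1 proteins CBX1, CBX3 and CBX5 had log2 ratios of 0.49, -0.33 and -0.15. The remodeller CHD3 had 59.3 and 32.5, a log2 ratio of 0.85, and CHD4 had 141.0 and 147.4.

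The maintenance DNA methyltransferase DNMT1 was the listed gene past the threshold, with 14.6 FPKM in the KD column and 34.9 in the CTRL column, a log2 ratio of -1.20. UHRF1, which guides DNMT1 to hemimethylated DNA, had 16.8 and 34.2, a log2 ratio of -0.98. DNMT3B had 1.18 and 2.52 and DNMT3A had 3.43 and 4.55. DNMT1, UHRF1, DNMT3A and DNMT3B, the DNA methylation genes of the list, all had lower values in the KD column, while TRIM28 and CHD3 had higher ones. ZNF274, itself a member and known to bring SETDB1 to zinc-finger gene clusters, had 5.65 and 7.08, from 173 and 226 counts, a log2 ratio of -0.28.

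The promoters of the members were slightly richer in GC than promoters at large. Windows of 250 bases before to 50 after the start were taken from RefSeq for 141 members on GRCh38.p14. Median GC content was 61.0% and the median number of CG dinucleotides 20, beside 58.7% and 14 over 35116 promoters. The members were filtered on level and the 35116 promoters were not, so the gap cannot be read as a trait of the members. The 6 called members with an entry had 71.0% and 34.5. KRAB members had 59.3% and 20, and members without the box 64.5% and 24. No test was made of these differences.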

How the data were processed

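RNA-seq libraries from 3 cell pools per group, labelled as K562, were read as 100-base pairs. The authors mapped them with TopHat 1.4.1 to hg19 and Ensembl transcripts, and the deposited FPKM values and estimated counts came from Cuffdiff 2.2.0 per the submitters' processing notes, with 1 value per gene and group. The way in which the 3 libraries were merged is not given in the sources used here. The authors' own fold change, p-value and FDR columns, deposited beside them, were not used, nor were their average, maximum and minimum FPKM columns. Because the libraries are not separated, the planned limma fit could not be run, and groups are described by counts and medians.

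From the FPKM values, log2 ratios with 1 added to each value were computed for genes whose mean was 1 or more. Estimated counts were rounded to whole numbers for the 95% exact binomial intervals. GC content, length and position came from GENCODE release 44 on GRCh37 (longest transcript), and proteins were translated from its longest open coding sequence instead of the planned RefSeq protein table. A coding sequence under 80% of the longest annotated one was not used. Fingers were counted as 2 cysteines 2 to 4 residues apart, 12 residues and 2 histidines 3 to 5 apart. KRAB patterns were searched in the first 400 residues and were widened after known KRAB proteins had been missed. The members and lists were chosen with earlier results of these data known. Members named are the 12 highest in level, the 12 highest and 12 lowest in ratio with at least 30 counts, the 3 on each side of the level threshold, the highest of each cluster and those with most and fewest fingers. Other members named as examples of a group were chosen after their values were seen. The functions were tested on simulated counts. Some genes of the lists are counted but not reported by name here. Computations used numpy 2.4.6 and scipy 1.17.1 under Python 3.11.15, tables pandas 2.3.3 and plots matplotlib 3.10.9. Alternatives were a pseudocount of 0.1, counts over column totals, other filters, centring, taking out a quadratic trend on GC and log2 transcript length, leaving out members with shared 100-base stretches, and a cluster gap of 0.5 Mb.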

Additional observations from a re-analysis of the deposited data

How the results depend on the processing

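The median log2 ratio of the members was -0.0041 as reported. It was -0.21 when estimated counts were divided by the column totals, where the median of all genes was -0.18, and 0.18 over the 56 members that exceeded 5 FPKM in either column. The number of members at 1 or more, 8 as reported, was 16 with a pseudocount of 0.1, beside 11.3% of all genes, and 4 after the GC and length trend was taken out, beside 5.02%. The number at -1 or less, 0 as reported, was 4 with a pseudocount of 0.1, beside 5.76% of all genes, and 3 with counts over column totals, beside 5.84%. ZNF787 changed sign once that trend was taken out, from 1.02 to -0.077, as did ZNF358 from 0.77 to -0.25, ZNF714 from -0.18 to 0.083 and ZNF331 from -0.0072 to 0.072. Of the medians of the 7 clusters, 2 moved beyond their interval with counts and 1 with the trend removed, and none did with the other pseudocount, filters or centring or without shared stretches. A gap of 0.5 Mb split cluster 7, whose median was 0.17, into pieces with medians of 0.97 and -0.05. Of 36 named members, 10 moved with counts, 3 with the pseudocount of 0.1 and 13 with the trend removed. The other main results, the co-repressor list among them, stayed within their range under these alternatives and with no filter, centring, or members with shared stretches left out.

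No paired analysis was possible because each group has only 1 value per gene. For the same reason leaving out each library and the replicate block were not run. Small estimated counts limit single members: for 71 of 161 the counting interval included 0.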
